A study of Mus musculus with 3 samples.

Results

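The translation initiation factor genes of mouse T lymphocytes are described here. They were taken as every row of the deposited count table whose symbol starts with Eif followed by a digit from 1 to 6. The eIF2 kinases (4 Eif2ak rows) and 8 rows named as pseudogenes ("-ps") were left out. The rule gave 52 genes of the 44788 symbols in the table, and GENCODE annotates 51 of them as protein coding. The remaining row, Eif2c5, is annotated as a long non-coding RNA. RNA had been sequenced from spleen T lymphocytes of Balb/c mice aged 6 to 8 weeks, stated in the protocol to be female. The cells were isolated with magnetic beads against CD90.2, a T cell surface protein, were held in culture medium (2% fetal bovine serum) and were exposed to LZ-8, an immunomodulatory protein of the fungus Ganoderma lucidum, for 15 h. All 3 libraries (replicates 1, 2 and 3) belong to this single group, so the values below are levels in LZ-8-treated cells, and no response to LZ-8 was measured. Nothing in the labels ties a replicate to its own mouse or culture, and p-values here measure only the spread of these libraries, which may be technical.

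Initiation starts when eIF2, carrying GTP and the initiator methionyl-tRNA, joins eIF3, eIF1, eIF1A and eIF5 on the small ribosomal subunit. The cap-binding protein eIF4E, the scaffold eIF4G and the RNA helicase eIF4A bring this complex to the messenger RNA, where it scans for a start codon, and eIF5B then joins the large subunit. The eIF4E-binding proteins and phosphorylation of eIF2 are the main brakes on these steps. T cells raise protein synthesis when they leave the resting state, in part by releasing both brakes.

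The libraries held 19041670, 12669690 and 14715992 counts, and levels are given as counts per 1000000 counts of a library (CPM). For a gene with 0 reads the upper limit (3 counts, counting error only) was 0.158, 0.237 and 0.204 CPM in replicates 1, 2 and 3. The summed level of 7 T cell markers was 2380 to 2505 CPM, and 5 B cell markers summed to 14.6 to 16.6 CPM. Markers of monocytes and macrophages (4 of 5 in the table, Csf1r and C1qa at 0), neutrophils, erythroid cells (Hbb-b1, Hbb-b2 and Alas2 at 0) and natural killer cells (Klre1 at 0) summed to less than 2 CPM per list in each library. The counts went against the stated sex of the mice: the Y-linked genes Ddx3y, Kdm5d, Uty and Eif2s3y summed to 240.4 to 255 CPM, while Xist, the RNA of the inactive X chromosome, had 1, 0 and 0 reads. This bears on 1 of the factor genes, Eif2s3y, and is taken up with eIF2.

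The 52 genes took 1.36%, 1.39% and 1.39% of all counts in replicates 1, 2 and 3 (1.38% ± 0.0154, SD, n = 3). Of them, 50 passed the low-count filter (at least 1 CPM in at least 2 libraries), and Eif4e1b, a germ-cell relative of eIF4E, and Eif2c5 had 0 reads in all 3 libraries. There were 32 genes at 100 CPM or more and 7 at 500 CPM or more. Only 3 genes with reads were under 20 CPM, namely Eif4e3, Eif5a2 and Eif4ebp3. The 6 genes with the most reads (Eif5a, Eif4g2, Eif4g1, Eif3c, Eif4b and Eif3a) held 44.6%, 44.9% and 44.4% of the group's reads in the 3 libraries. The median of the 50 genes was 154 CPM, against 27.0 CPM over all genes that passed the filter. In bulk RNA, more cells with a transcript and more of it per cell cannot be told apart.

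To compare genes, CPM was divided by the length of all annotated exons of a gene in kilobases (CPM per kb). On this scale the median was 35.4 for the 50 factor genes and 8.27 for the 12812 filtered genes with a length, and 46 of the 50 lay above the latter value. Retained introns and long untranslated ends lengthen the exon sum of some genes, so the length of the longest coding transcript was used as a second scale. By complex, the eIF5A genes had the highest median level (307 ± 7.58 CPM per kb of exon, SD, n = 3, 2 genes, carried by Eif5a at 611 against 3.30 for Eif5a2), followed by the eIF4G scaffolds (122 ± 2.77, 3 genes), eIF3 (82.1 ± 0.841, 14 genes) and the eIF4A helicases with their cofactors (68.1 ± 1.46, 5 genes). The medians were lowest for the cap-binding genes (9.16 ± 0.301, 4 genes) and for Eif2a and Eif2d (11.4 ± 0.432). The order of these groups rests on Eif4e1b, which had 0 reads: without it the cap-binding median is the level of Eif4e2, 13.4. Per kb of coding sequence the cap-binding median was 74.5, above the 45.0 of eIF2B and the 43.5 of Eif2a and Eif2d. The median was 29.7 ± 1.43 CPM per kb of exon for the start codon group, 29.2 ± 1.13 for eIF2B, 26.5 ± 1.27 for the eIF4E-binding proteins and 24.9 ± 0.807 for eIF2. On the transcript scale the eIF3 median was 167, above the 156 of the eIF4G genes, so the order of these groups depends on the length used. The plot of all factor genes by complex shows that most genes of a complex differed from each other far more than the libraries did.

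**Figure D1:**
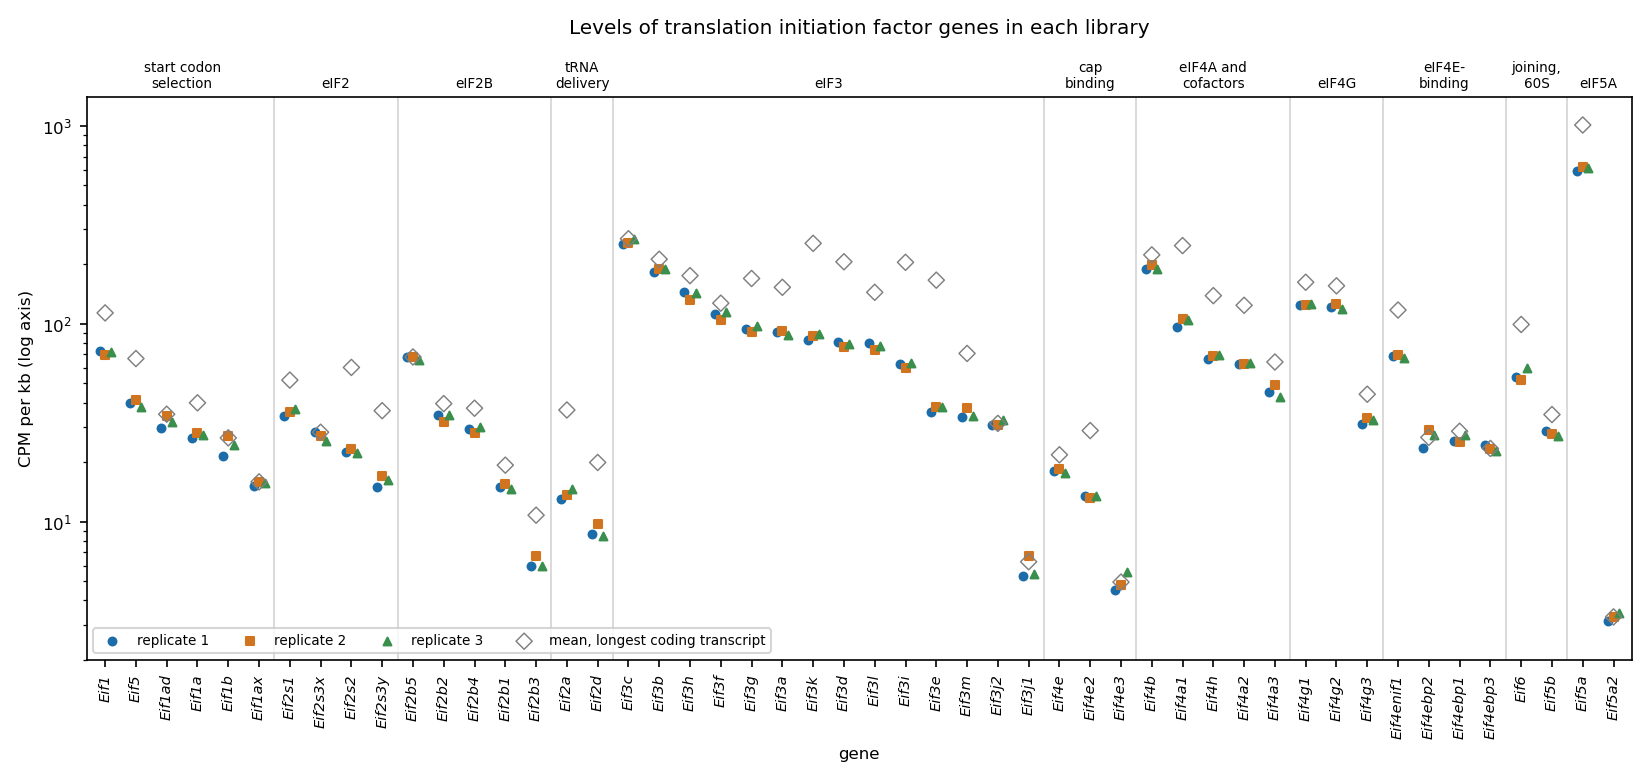
Level of each initiation factor gene with reads in the 3 libraries, in CPM per kb of annotated exon on a log axis, grouped by complex; open diamonds are the means on the longest coding transcript. Eif5a stands above all others at a mean of 611 CPM per kb of exon and Eif5a2 lies lowest at 3.30.

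Several factor genes have processed pseudogenes with nearly the same sequence, so the reads that a gene receives depend on how the counting placed reads that match both. How the authors' counting treated such reads is not given in the sources used here. The clearest cases are Eif4a1, encoding the main eIF4A helicase, and Eif2s3x, encoding the gamma subunit of eIF2. Eif4a1 (chr11:69666936-69672423, minus strand, GRCm38) has the copy Eif4a-ps4 (chr1:60703932-60705149, plus strand), which matched the coding sequence of Eif4a1 at 1217 of 1218 bases. A stretch of the coding sequence (bases 445 to 534 of Eif4a1, written 5′ to 3′, from GENCODE vM21) is shown for the gene, its copy and its paralog Eif4a2, because it holds the single difference between gene and copy. Capitals mark the 26 positions at which the 3 sequences are not all the same.
Eif4a1: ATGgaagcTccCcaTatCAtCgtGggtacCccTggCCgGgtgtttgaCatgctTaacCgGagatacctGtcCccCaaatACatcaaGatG
Eif4a-ps4: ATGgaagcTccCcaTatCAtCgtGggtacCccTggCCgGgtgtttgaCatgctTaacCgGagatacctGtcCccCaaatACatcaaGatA
Eif4a2: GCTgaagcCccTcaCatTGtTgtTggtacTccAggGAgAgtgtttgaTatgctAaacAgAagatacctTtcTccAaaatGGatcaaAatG
In these 90 bases Eif4a-ps4 differs from Eif4a1 at 1 position and Eif4a2 differs at 25. Over the whole aligned coding sequence, Eif4a1 was 77.9% identical to Eif4a2 and 65.6% identical to Eif4a3.

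Eif2s3x (chrX:94188707-94212862, minus strand) has the copy Gm2223 (chrX:33505661-33507010, plus strand), and the 1347 aligned bases were identical. The Y-linked gene of the same subunit, Eif2s3y (chrY:1010543-1028847, plus strand), had 194 substitutions over 1416 coding bases (86.3% identity). Bases 1024 to 1113 of the coding sequence are shown in the same way, with capitals at the 19 positions that vary, because they set the inseparable pair beside the separable one.
Eif2s3x: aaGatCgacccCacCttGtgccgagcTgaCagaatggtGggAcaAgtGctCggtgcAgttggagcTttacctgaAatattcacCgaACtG
Gm2223: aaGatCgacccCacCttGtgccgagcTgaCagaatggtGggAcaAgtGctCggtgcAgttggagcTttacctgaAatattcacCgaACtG
Eif2s3y: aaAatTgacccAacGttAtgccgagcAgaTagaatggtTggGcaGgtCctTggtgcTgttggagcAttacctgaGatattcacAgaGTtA
Gm2223 differs from Eif2s3x at 0 of these 90 positions and Eif2s3y at 19. The longest identical run between the X and Y genes was 34 bases over the whole coding sequence.

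The copies held many of the reads. Eif4a-ps4 had 19706, 13370 and 15128 reads (1035, 1055 and 1028 CPM) in replicates 1, 2 and 3, where Eif4a1 had 7909, 5782 and 6627. The copy thus had 2.36 ± 0.113 times the reads of the gene (SD, n = 3), in every library more. Gm2223 had 4296, 2979 and 3126 reads, which was 2.17 ± 0.0891 times those of Eif2s3x. Gm9892, which matches the eIF2 beta gene Eif2s2 at 987 of 992 bases, had 0.811 ± 0.0335 times the reads of Eif2s2, and Gm7658 had 1.05 ± 0.102 times those of Eif3m. As no gene-specific read set was available, the share of these reads that came from the genes themselves cannot be told apart from transcription of the copies.

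GENCODE annotates 36 pseudogenes that have at least 20% of their 31-base words in a factor transcript, for 16 factor genes, and 25 of them, for 14 genes, were found in the table. Adding their reads to the parent gene multiplied the level by more than 1.5 for 5 genes: 3.38 ± 0.114 times for Eif4a1, 3.17 ± 0.0891 for Eif2s3x, 2.05 ± 0.102 for Eif3m, 1.81 ± 0.0335 for Eif2s2 and 1.61 ± 0.0218 for Eif1, which has 9 copies in the table. For Eif5a the copy added little, at 1.05 ± 0.000473 times. With the copy reads, Eif4a1 came to 1487 ± 30.9 CPM, against 441 ± 22.1 CPM without them. In all, 24 of the 52 genes shared less than 5% of their 31-base words with another gene and 10 shared at least 20%. The values that follow are the counts as deposited, with the copy-added value where it matters.

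**Figure D2:**
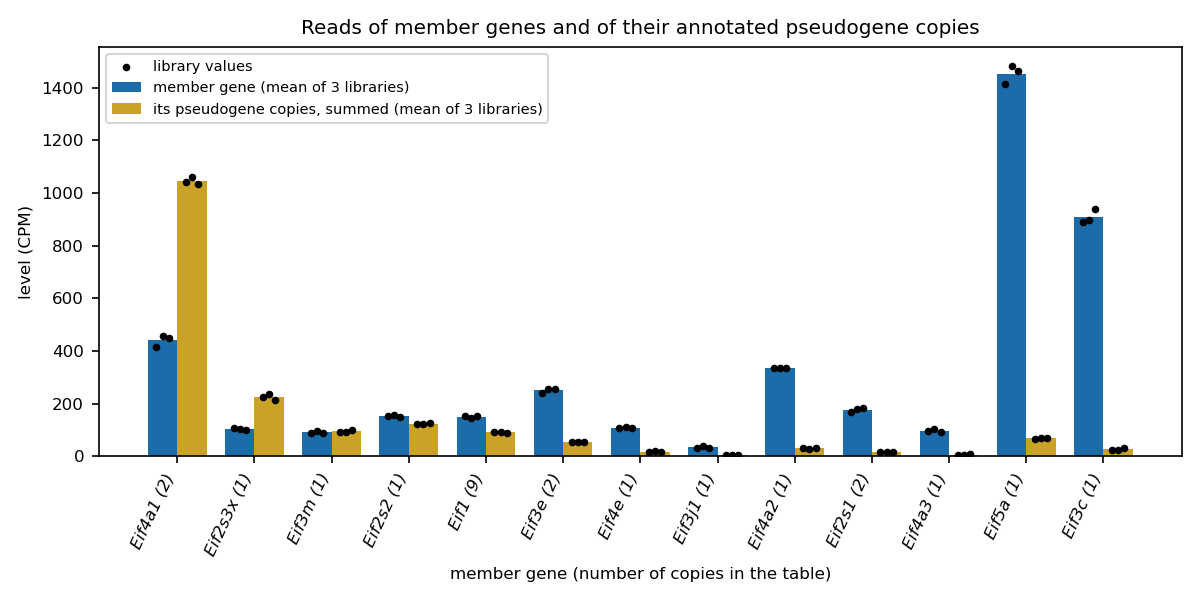
Mean level in CPM of 13 initiation factor genes and of their annotated pseudogene copies, summed; bars start at 0, points are the 3 libraries and the number of copies is in brackets. For Eif4a1 and Eif2s3x the copies had more reads than the gene in all 3 libraries.

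eIF2 consists of an alpha, a beta and a gamma subunit and delivers the initiator tRNA. The alpha gene Eif2s1, whose protein carries the regulatory phosphorylation site, was at 169, 178 and 184 CPM in replicates 1, 2 and 3. The beta gene Eif2s2 was at 151, 158 and 150.3 CPM, and the X-linked gamma gene Eif2s3x at 108, 104 and 97.6 CPM. Per kb of exon, Eif2s1 (35.7 ± 1.59) was highest and Eif2s3y (16.1 ± 1.07) lowest, a 2.22-fold range. On the transcript scale both ends changed: Eif2s2 (60.2) was highest and Eif2s3x (28.3) lowest, a 2.13-fold range. With the copy reads added the range per kb of exon was 5.35-fold and Eif2s3x was highest.

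Eif2s3y had 1181, 897 and 994 reads (62.0, 70.8 and 67.5 CPM), and 0.448% of its 31-base words occur in another gene, so its sequence sets it apart from its X-linked partner. It made up 39.3% ± 2.47 (SD, n = 3) of the reads of the 2 gamma genes, or 16.9% ± 1.15 with the Gm2223 reads counted for the X gene. The X to Y ratio in reads was 1.55 for the eIF2 gamma pair and 4.91 with Gm2223. For the other X and Y gene pairs examined it was 3.71 for Ddx3x and Ddx3y, 3.89 for Kdm5c and Kdm5d and 2.70 for Kdm6a and Uty. Per kb of exon these 3 ratios were 3.65, 8.29 and 3.15, and that of the gamma pair was 1.69, or 5.36 with Gm2223. Together the gamma genes came to 170 ± 4.74 CPM as deposited, without the Gm2223 reads. With those reads Eif2s3x alone came to 328 ± 15.4 CPM. Whether male mice or a mixture of animals supplied the cells was not tested.

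eIF2B is the guanine nucleotide exchange factor that recharges eIF2 and is blocked by phosphorylated eIF2. Its catalytic epsilon gene Eif2b5 was at 175, 176 and 169 CPM (66.9 ± 1.41 CPM per kb of exon), the highest of the 5 subunit genes. The gamma gene Eif2b3 was the lowest per kb of exon (6.21 ± 0.400), a 10.8-fold range within the complex. This range shrank to 6.30-fold on the transcript scale and to 2.70-fold per kb of coding sequence. The beta gene Eif2b2 (33.6 ± 1.53 CPM per kb of exon), the delta gene Eif2b4 (29.2 ± 1.13) and the alpha gene Eif2b1 (15.1 ± 0.446) lay between them. The library values of Eif2b2 and Eif2b4 were the closest neighbours in this order.

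The kinases and phosphatases that set eIF2 phosphorylation were a list of 9 genes, all measured. Of the kinases, Eif2ak1 (the heme-regulated kinase) was at 14.1 CPM per kb of exon, Eif2ak3 (PERK) at 7.88, Eif2ak4 (GCN2) at 5.70 and Eif2ak2 (PKR) at 1.40. Of the phosphatase genes, the catalytic subunits Ppp1ca, Ppp1cc and Ppp1cb were at 126, 22.7 and 11.1 CPM per kb, and their eIF2-targeting partners Ppp1r15b and Ppp1r15a at 39.5 and 28.3. Per kb of exon, all of these but Ppp1cb exceeded the 4 kinase genes. In CPM the order changed: Ppp1cb (121 ± 2.95) lay above Eif2ak1 (80.0 ± 3.56), the highest kinase gene. On that scale Ppp1r15a (83.2 ± 5.90) and Ppp1cc (77.9 ± 5.57) were close to Eif2ak1. Ppp1cc shares 41.7% of its 31-base words with other genes, so its level is uncertain. Eif2a and Eif2d, which can deliver tRNA to the ribosome without eIF2, were at 84.3 ± 4.57 and 66.0 ± 4.78 CPM.

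eIF3 is the largest initiation factor and the platform that binds the small subunit, eIF4G and the messenger RNA. Its 14 genes held 33.5% of the group's reads. Eif3c was highest per kb of exon, at 891, 899 and 941 CPM (259 ± 7.67 CPM per kb), followed by Eif3b (187 ± 4.05), Eif3h (141 ± 7.09) and Eif3f (111 ± 5.52). Eif3g, Eif3a, Eif3k, Eif3d and Eif3l formed a close group between 94.0 and 77.0 CPM per kb, and Eif3i was at 62.0 ± 1.65. Eif3e and Eif3m were lower, at 37.2 ± 1.13 and 35.1 ± 2.14, and do not differ beyond their spread.

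The length scale reordered these subunits. On the longest coding transcript Eif3k came second (255 ± 8.63 CPM per kb) and Eif3e was at 166 ± 5.06, whereas Eif3m was still the lowest of the 12 genes other than Eif3j1 and Eif3j2 (70.8 ± 4.32). Over all 14 genes the range from Eif3c to Eif3j1 was 44.5-fold per kb of exon and 42.9-fold per kb of transcript, but 8.18-fold per kb of coding sequence, with Eif3k highest. The range over the 12 genes was 7.39-fold per kb of exon, 3.80-fold per kb of transcript and 5.87-fold per kb of exon with the copy reads added, where Eif3e and not Eif3m was lowest. Eif3d shares 39.6% of its 31-base words with the antisense gene Gm17638, and reads of an antisense pair cannot be separated where strand was not used.

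**Figure D3:**
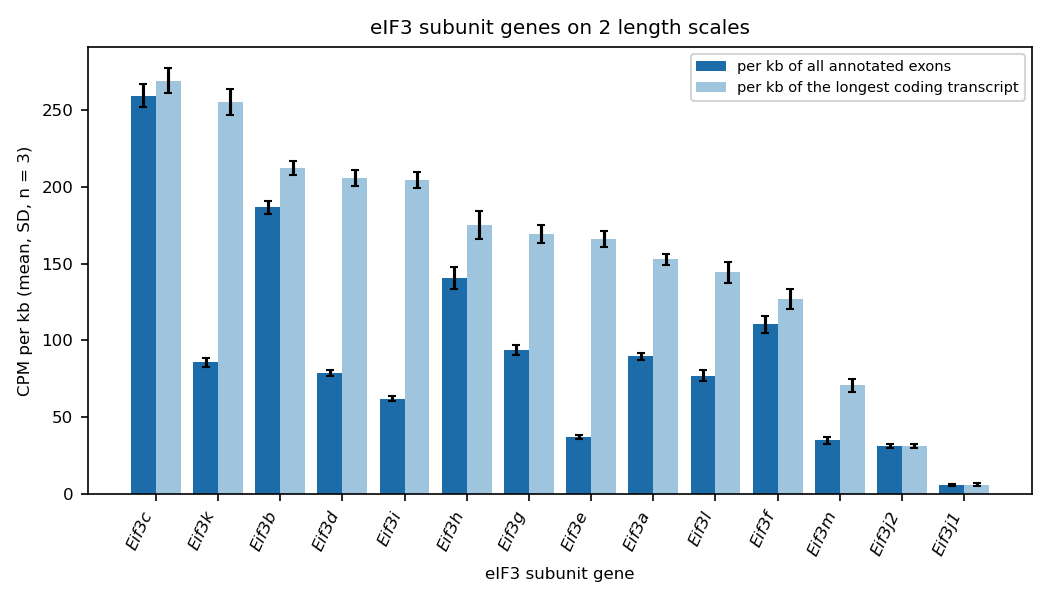
Mean level of the 14 eIF3 subunit genes in CPM per kb of all annotated exons (dark) and of the longest coding transcript (light), with bars from 0 and error bars of 1 SD over 3 libraries. Eif3c leads on both scales, and Eif3j1 and Eif3j2 lie at the low end on both.

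The subunit eIF3j is only loosely bound and is encoded in the mouse by near-identical genes. Eif3j1 was at 31.04, 39.0 and 31.8 CPM (5.82 ± 0.753 CPM per kb of exon) and the intronless Eif3j2 at 73.0, 73.6 and 77.3 CPM (31.4 ± 0.983). Eif3j2 was 5.41-fold higher per kb of exon, in 3 of 3 libraries. The aligned coding sequences had 783 identical bases, 0 substitutions and 6 gap columns, and 94.0% of the 31-base words of Eif3j2 occur in Eif3j1. The split between these genes is therefore uncertain, and their sum, not their ratio, bears on the level of eIF3j.

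eIF1 and eIF1A keep the scanning ribosome in an open state until a start codon is met, and eIF5 triggers hydrolysis of the GTP on eIF2. Eif1 was at 153, 146 and 151 CPM and its paralog Eif1b at 24.3, 30.5 and 27.6 CPM. Per kb of exon Eif1 was 2.94-fold higher than Eif1b (log2 ratio 1.56 ± 0.20). The autosomal eIF1A gene Eif1a (114 ± 3.20 CPM) was 1.76-fold above the X-linked Eif1ax (82.2 ± 2.33 CPM) per kb of exon, but the log2 ratio per kb of coding sequence was -0.34, the opposite direction. Eif5 was at 270 ± 9.96 CPM, and Eif1ad, whose product resembles eIF1A, at 89.2 ± 5.83 CPM. Eif5b, the factor for subunit joining, was at 271 ± 8.59 CPM, and Eif6, which keeps free large subunits from joining, at 149 ± 10.96 CPM.

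Eif4e, the cap-binding subunit of eIF4F, was at 108, 111 and 106 CPM (18.1 ± 0.418 CPM per kb of exon). Eif4e2, a cap-binding repressor that acts with GIGYF proteins and ZNF598, was at 101, 98.8 and 101 CPM. Eif4e was 1.35-fold above Eif4e2 per kb of exon, but the log2 ratio was -0.41 on the transcript scale, so the order of these genes was not fixed by the data. Eif4e3 was at 12.5 ± 1.33 CPM, 3.66-fold below Eif4e per kb of exon. Of the eIF4E2 partners, Zfp598, Gigyf1 and Gigyf2 were at 40.2, 33.7 and 10.7 CPM per kb.

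The scaffold genes were all above the cap-binding genes in CPM and per kb of exon. Per kb of coding sequence Eif4g2 (457) was far above Eif4e (167), but Eif4g1 (190) was close to it. Eif4g3 (67.8) lay below both Eif4e and Eif4e2 (129) on that scale. Eif4g1 was at 910.5, 910.4 and 922 CPM and Eif4g2, encoding a related protein (DAP5) that lacks the eIF4E-binding part, at 1235, 1283 and 1212 CPM. Their levels per kb of exon, 125 ± 0.885 and 122 ± 3.58, overlapped between libraries. Eif4g2 was higher in reads (log2 ratio 0.44) and per kb of coding sequence (1.26). Eif4g3 was at 358 ± 14.3 CPM, and Eif4g1 was 3.87-fold above it per kb of exon, in 3 of 3 libraries. Pabpc1, the poly(A)-binding protein that contacts eIF4G, was at 1706 ± 13.8 CPM (261 ± 2.11 CPM per kb of exon), which on the per kb of exon scale lies between Eif5a and Eif4g1.

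eIF4A unwinds the messenger RNA and is stimulated by eIF4B and eIF4H. Eif4a1 was at 415, 456 and 450.3 CPM and Eif4a2 at 335, 336 and 336 CPM. Per kb of exon Eif4a1 was 1.61-fold above Eif4a2 (log2 ratio 0.69 ± 0.07), in 3 of 3 libraries, and 5.01-fold above it with the reads of Eif4a-ps4 and the other copies added. The size of this lead thus depends on where the copy reads belong, and in the stretch printed above a single base tells gene and copy apart. Eif4a3, which belongs to the exon junction complex rather than to initiation, was at 96.7 ± 6.95 CPM. Eif4b was at 848, 883 and 847 CPM, 2.82-fold above Eif4h (369, 382 and 384 CPM) per kb of exon. Per kb of coding sequence the log2 ratio of this pair was -0.12.

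The eIF4E-binding proteins block eIF4E until mTOR phosphorylates them. Eif4ebp2 was at 137, 167 and 158 CPM, Eif4ebp1 at 56.2, 55.3 and 60.003 CPM and Eif4ebp3 at 18.2, 17.3 and 16.9 CPM. In reads, Eif4ebp2 was 8.80-fold above Eif4ebp3, but its long exons brought the 3 genes to nearly the same level per kb of exon, 26.7 ± 2.72, 26.0 ± 1.13 and 23.4 ± 0.903. On that scale the library values of Eif4ebp2 overlapped those of both other genes, while the lowest Eif4ebp1 value (25.2) lay above the highest Eif4ebp3 value (24.4). Per kb of coding sequence Eif4ebp2 (428 ± 43.7), Eif4ebp1 (163 ± 7.06) and Eif4ebp3 (57.5 ± 2.22) lay far apart, so the near equality depends on the length used. Eif4ebp3 shares 66.4% of its 31-base words with AC115631.1, annotated as another coding gene, so its level is uncertain. Per kb of exon Eif4e lay below Eif4ebp1 (log2 ratio -0.53 ± 0.09) and Eif4ebp2 (-0.55 ± 0.14) in 3 of 3 libraries, while in reads Eif4e exceeded Eif4ebp1 (log2 ratio 0.93). Eif4enif1, the eIF4E transporter, was at 436 ± 7.73 CPM. Among the 9 genes of the mTOR and MNK list, Mknk2, a kinase of eIF4E, was at 510 ± 3.58 CPM (131 CPM per kb), Pdcd4, an inhibitor of eIF4A, at 38.9 CPM per kb and Mtor at 15.2.

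eIF5A carries the modified residue hypusine and is needed for elongation through difficult stretches and for termination. Eif5a was at 1412, 1481 and 1465 CPM and took 10.6% of the group's reads together with Eif5a2 (15.8, 16.6 and 17.4 CPM). Eif5a was 185-fold above Eif5a2 per kb of exon (log2 ratio 7.53 ± 0.05) and 87.4-fold in reads. The coding sequences were 73.1% identical, and 0.140% of the 31-base words of Eif5a2 occur in another gene. The hypusine enzyme genes Dhps and Dohh were at 17.4 and 12.7 CPM per kb. The elongation factor genes Eef1a1 (7958 ± 280 CPM, 3192 CPM per kb) and Eef2 (4783 ± 139 CPM, 1439 CPM per kb) exceeded all initiation factor genes.

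Ratios were formed for 16 pairs of paralogs or partners, and 13 had the same direction in 3 of 3 libraries. The exact sign-flip permutation test (two-sided) gave p = 0.25 for those 13 pairs, the smallest that 3 libraries allow, and 0.308 after Benjamini-Hochberg adjustment over the 16 pairs. No pair could therefore pass a threshold of 0.05, and the ratios are given by their size and spread. The direction was the same on all length scales for 9 pairs, among them Eif5a to Eif5a2, Eif4g1 to Eif4g3, Eif4e to Eif4e3, Eif1 to Eif1b and Eif4a1 to Eif4a2. It was turned on at least 1 scale, or by leaving out a library, for the other 7. With copy reads added the direction was kept for 16 of 16 pairs, though Eif2s3x to Eif2s3y moved from 1.69-fold to 5.36-fold per kb of exon.

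**Figure D4:**
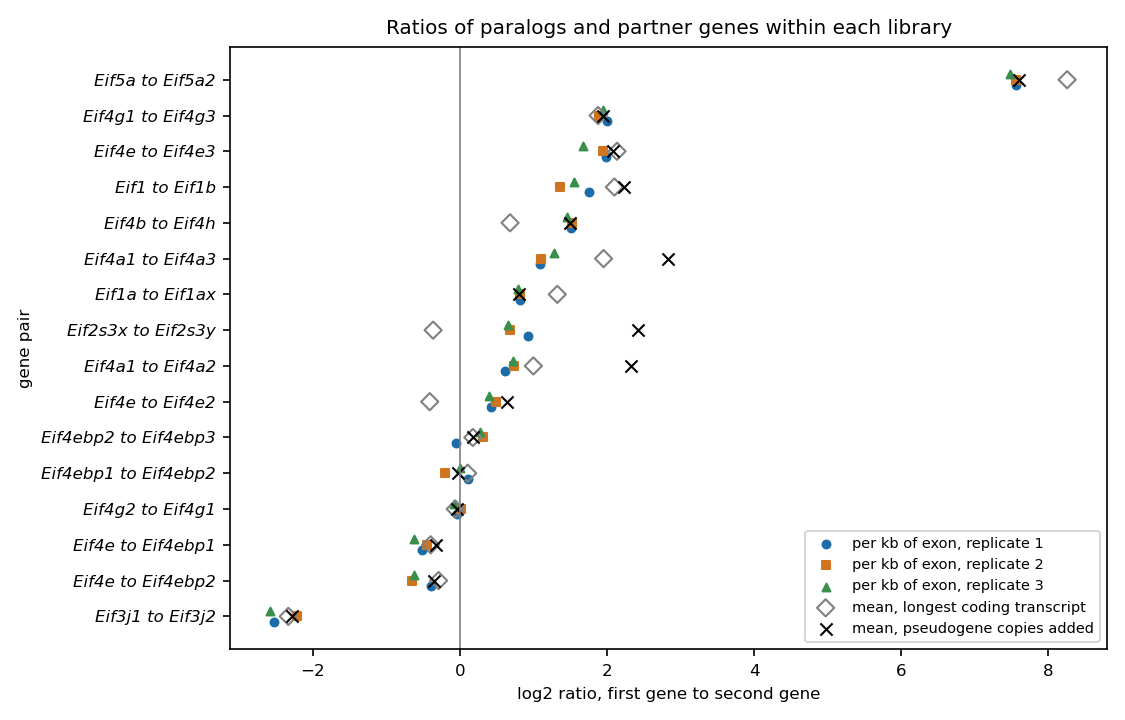
Log2 ratio of the first to the second gene of 16 pairs, per kb of annotated exon in each library (filled symbols), with the mean on the longest coding transcript (diamonds) and with pseudogene copy reads added (crosses). Eif5a to Eif5a2 lies far right at 7.53, and Eif2s3x to Eif2s3y and Eif4e to Eif4e2 lie on opposite sides of 0 on the 2 length scales.

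Levels were then compared between the libraries, asking which genes differed by more than counting noise. This test compares libraries, not conditions. With edgeR's likelihood-ratio test at dispersion 0 and Benjamini-Hochberg adjustment over all genes tested, 19 of the 50 factor genes differed at an adjusted p under 0.05. Of all 13500 genes tested, 13.7% did, and of the 2570 at 100 CPM or more, 33.9% did. Among the factor genes at 100 CPM or more the count was 14 of 32, and below that it was 5 of 18, so the count should be read against the background at the same level. The median range between libraries was 0.08 on the log2 scale for the 32 abundant factor genes and 0.09 for all genes of that level.

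The differences were small. Eif4ebp2 had the lowest adjusted p (9.94e-11), with 137 CPM in replicate 1 and 167 in replicate 2 (log2 range 0.29), followed by Eif4a1 (log2 range 0.14, adjusted p = 8.03e-08) and Eif5a (0.07, adjusted p = 1.59e-06). Replicate 1 was the lowest library for these 3 genes. With copy reads added the log2 range of Eif4a1 was 0.06 (adjusted p = 0.000385). The widest ranges were those of Eif3j1 and Eif1b, both 0.33 on the log2 scale with replicate 2 highest. The call for Eif3j1 was lost with copy reads added (0.23, adjusted p = 0.0667) and without replicate 2 (0.04, adjusted p = 0.842), and that for Eif1b was lost without replicate 1 (adjusted p = 0.483) or replicate 2 (0.233). Eif6 (0.21) was highest in replicate 3, and its call was lost without that library (0.04, adjusted p = 0.715). Of the 19 genes, replicate 1 was lowest for 12 and replicate 2 highest for 11. Among all 1847 genes called, replicate 1 was lowest for 31.9% and replicate 2 highest for 28.6%.

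Calls came from 7 of the 14 eIF3 genes (Eif3b, Eif3c, Eif3f, Eif3h, Eif3j1, Eif3k and Eif3l), and these did not move together: Eif3f (325, 302 and 332 CPM), Eif3h and Eif3l were lowest in replicate 2, while Eif3b, Eif3c, Eif3j1 and Eif3k were lowest in replicate 1. Calls also came from 2 of 4 eIF2 genes, Eif2s1 and Eif2s3y, and from 3 of 5 genes of the eIF4A group and 2 of 3 eIF4G genes. These counts rest on few genes and stand against 13.7% of all genes tested and 33.9% of those at 100 CPM or more. The Eif2s3y call was marginal (adjusted p = 0.0493) and was lost with DESeq2 size factors (0.0504), column totals (0.0589), no low-count filter (0.101) and only low-sharing genes (0.0532). Eif2s3x was called with copy reads added (adjusted p = 0.00202) and not as deposited (0.102). Leaving out replicate 1, 2 or 3 left 9, 10 or 13 calls among the 50 genes. The share called over all genes, not matched for level, fell to 8.48%, 9.03% and 5.61%. With edgeR, 0 of the 19 genes were called under all 3 omissions and each was called under at least 1. In the test on all libraries 30 of the 50 had an unadjusted p under 0.05. The share of all genes at that unadjusted threshold was not computed, so this count has no background to be read against. Without replicate 1 the calls for Eif4ebp2, Eif4a1 and Eif5a were lost, at adjusted p of 0.322, 0.855 and 0.819. In the list of 52 other translation genes, 13 of 51 tested differed between the libraries, to be read against the same 2 background shares. Among them were Eef1a1 (adjusted p = 5.25e-84) and Eef2 (adjusted p = 3.00e-26).

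**Figure D5:**
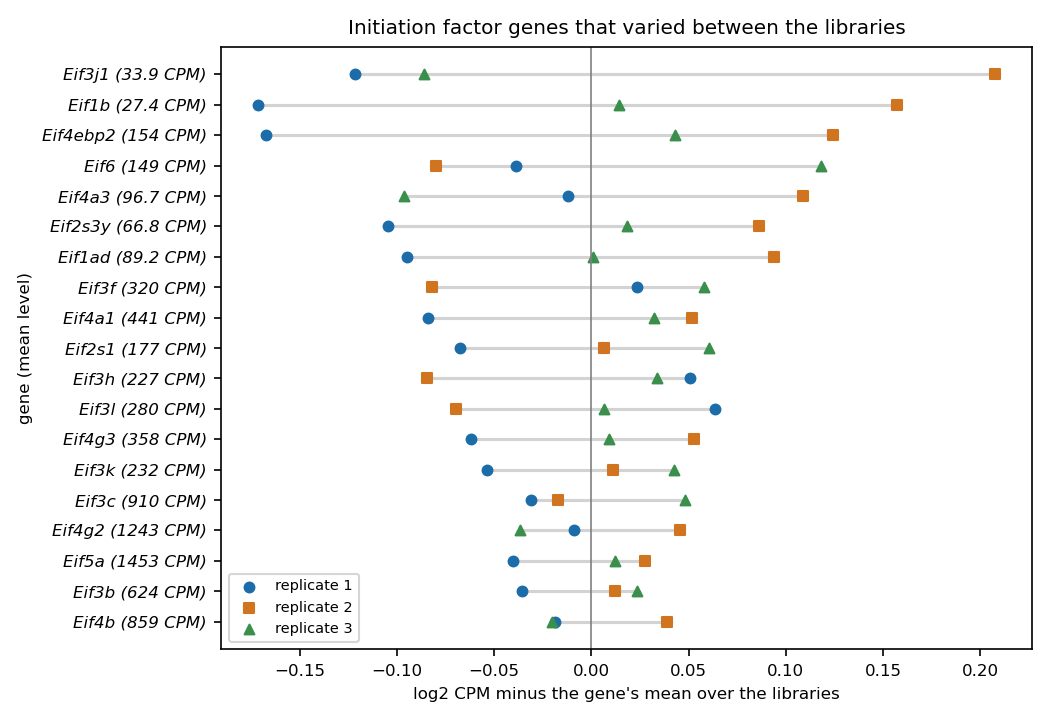
Level of each of the 19 initiation factor genes that differed between libraries, as each library's log2 CPM minus the gene's mean log2 CPM over the 3 libraries. Eif3j1 and Eif1b have the widest spread, and replicate 1 is the lowest library for 12 of the 19 genes.

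Promoters of the factor genes were searched for 4 motifs that are known from genes of the translation machinery, in the RefSeq (GRCm38.p6) sequence from 250 bases before to 50 bases after the annotated start, which 40 of the 52 genes had. The E-box CACGTG, which Myc and Max can bind and which reads the same on both strands, was found in 8 of 40 promoters (20%), against 10.9% of 8287 promoters of genes tested and 7.24% of all 27025 promoters. The ETS core CCGGAAG (either strand) was found in 13 (32.5%), against 20.3% and 9.12%. The element TGATGNAAN of the C/EBP-ATF factors (either strand) was found in 1, that of Eif2s3x (2.5%, against 2.11% and 4.04%). A start on C followed by at least 4 pyrimidines, as in the terminal oligopyrimidine tract of ribosomal protein messages, was found in 3 (7.5%, against 2.30% and 2.49%), those of Eif2s3x, Eif3f and Eif2c5. Of these, the non-coding Eif2c5 had 0 reads and was not among the genes tested, so the share of tested genes is not a like comparison for it. A match describes letters and no binding was measured.

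The E-box carriers came from several complexes, and windows of 30 bases around 6 of them are shown 5′ to 3′ on the gene's strand, with the E-box in capitals.
Eif3k, chr7:28981915-28981944, minus strand: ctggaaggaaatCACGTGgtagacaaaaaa
Eif3f, chr7:108934335-108934364, plus strand: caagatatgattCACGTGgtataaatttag
Eif4h, chr5:134639488-134639517, minus strand: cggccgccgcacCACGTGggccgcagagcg
Eif1b, chr9:120492570-120492599, plus strand: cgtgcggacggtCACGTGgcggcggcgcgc
Eif4a1, chr11:69672595-69672624, minus strand: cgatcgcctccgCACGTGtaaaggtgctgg
Eif4g1, chr16:20672661-20672690, plus strand: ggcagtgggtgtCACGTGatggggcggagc
Counted from the annotated start, the first base of the E-box lay at -44 in Eif3k, -68 in Eif3f, -96 in Eif4h, -24 in Eif1b, -189 in Eif4a1 and -54 in Eif4g1. The other carriers were Eif3a and Eif5a2, and the latter, at 3.30 CPM per kb of exon the least abundant factor gene with reads, had 2 of them.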

How the data were processed

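The authors deposited 1 table of raw counts, with a row per gene symbol and a column for each of the 3 libraries. The labels name an Ion Proton RNA-seq kit, and the submitters' processing notes name mm10. For the aligner, counter and strand use: not given in the sources used here. CPM is counts over the library total times 1000000. Gene lengths, copies (31-base words) and coding sequences came from GENCODE vM21 (GRCm38), and 32212 of 44788 symbols had an exon length. Genes with at least 1 CPM in at least 2 libraries were tested between libraries with edgeR 4.0.16 (TMM, glmFit at dispersion 0, likelihood-ratio test), checked on simulated data. With 1 group, a quasi-likelihood contrast could not be fitted. Pair ratios had 0.5 added to each count. Alternatives covered DESeq2 1.42.0 size factors, filters, lengths, left-out libraries and, added after seeing the data, copy reads. R 4.3.3, Python 3.11.15 and Biopython 1.88 were used. The genes and lists were chosen with earlier results of these data known; Eif1ax and the Eif1a pair were set after the table was read. The rule for names allowed, without requiring, all factor genes, both genes of each pair, sharing genes, and of each translation sublist the 4 highest per kb and those that varied; other genes named, such as kinases, were chosen after their values were seen.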

Additional observations from a re-analysis of the deposited data

How the results depend on the processing

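The count of factor genes that differed between libraries was 19 of 50 (38%, against 13.7% of all genes tested). It was 9 (18%, against 8.48%), 10 (20%, against 9.03%) and 13 (26%, against 5.61%) without replicates 1, 2 and 3. With only genes sharing under 5% of their 31-base words, where fewer genes were tested, it was 7 of 23 (30.4%, against 12.8%). Without a low-count filter it was 13 (26%, against 7.28%). It was 18 or 19 under the other scalings, the stricter filter and with copy reads added. These shares over all genes are not matched for level. Of the 19 calls, 12 were lost without replicate 1, 10 without replicate 2 and 6 without replicate 3. The median level per kb was 44.2 (transcript), 113 (coding length), 16.1 (low-sharing genes) and 39.9 (copies added) for eIF2. The low-sharing value of eIF2 is the level of Eif2s3y alone, since the other eIF2 genes are then left out. For eIF2B the median was 37.4, 45.0 and 24.3 on the first 3 of these settings. For eIF3 it was 167, 206 and 89.9, and 92.4 as a mean over genes. The fold range of eIF2 was 2.13 per transcript, 3.97 per coding length, 2.65 unscaled and 5.35 with copies. That of eIF2B was 6.30 per transcript, 2.70 per coding length and 4.47 unscaled, and that of the 14 eIF3 genes, 44.5 per kb of exon, was 8.18 per coding length and 26.8 unscaled. The eIF5A median with only low-sharing genes was 3.30, since Eif5a is then left out. Reversed log2 ratios were Eif4g2 to Eif4g1 (1.26 coding, 0.44 unscaled), Eif4e to Eif4e2 (-0.41 transcript), Eif4ebp1 to Eif4ebp2 (0.11 transcript, -0.10 to 0.057 with 1 library left out), Eif1a to Eif1ax (-0.34 coding), Eif2s3x to Eif2s3y (-0.36 transcript), Eif4b to Eif4h (-0.12 coding) and Eif4e to Eif4ebp1 (0.035 coding, 0.93 unscaled). The differences between length settings follow from the lengths themselves; the cause of the others was not tested. No paired analysis was possible because there is only 1 group. Depth limits the genes under 20 CPM most.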
